A study of Mus musculus with 12 samples.

Results

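The lysosomal cathepsins Ctsa, Ctsb, Ctsc, Ctsd, Ctsh, Ctsk, Ctsl, Ctss and Ctsz were followed in 12 RNA-seq libraries of subcutaneous B16 tumours. The 9 genes were taken by symbol from a table of 32416 gene symbols, and all 9 reached at least 1 TPM (a transcript level scaled for gene length and library total) in every library. B16 is a mouse melanoma line, and its tumours were grown in C57BL/6 mice. The B16mhgp100 tumours were 4 with Aoah over-expression and 4 with the Vector control, and all received anti-PD1 from day 10 after inoculation. The B16F10 tumours were 2 with Aoah over-expression and 2 with the Vector control, and all received anti-PD1 with anti-CTLA4 from day 6. Both antibodies block checkpoint receptors of T cells. Each was given at 200 µg per dose, in 2 doses a week and 4 in all, with collection 1 day after the last dose. Aoah codes for acyloxyacyl hydrolase, an enzyme that inactivates bacterial lipopolysaccharide by cutting off acyl chains. No group was left without antibody. The tumour line, the antibodies and the first day of dosing changed together, so their effects cannot be told apart. The labels give no age of the mice, no promoter of the over-expression construct and no word on whether a line was 1 clone. Nor do they say whether each tumour had its own mouse, so a p-value here speaks for the spread among these tumours alone.

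Cathepsins are the main proteases of the lysosome. They are made as inactive precursors, carried to the lysosome largely by mannose 6-phosphate receptors, activated in its acid interior, and held in check outside it by cystatins and stefins. Tumour cells and macrophages both make them. In antigen-presenting cells, cathepsin S trims the invariant chain (Cd74) from MHC class II molecules. Many lysosomal genes are driven by the MiT/TFE transcription factors, among them TFEB, TFE3 and the melanocyte regulator MITF, through an E-box.

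The 9 genes fall into several enzyme types. Cathepsin D (Ctsd) is an aspartic endopeptidase. Cathepsin A (Ctsa) is a serine carboxypeptidase that also protects beta-galactosidase and neuraminidase. The others are papain-like cysteine proteases. Among these, cathepsins B, L, S and K (Ctsb, Ctsl, Ctss, Ctsk) are endopeptidases, cathepsin K being best known for collagen breakdown by osteoclasts. Cathepsin H (Ctsh) is an aminopeptidase, cathepsin Z (Ctsz) a carboxypeptidase, and cathepsin C (Ctsc) the dipeptidyl peptidase that activates granzymes and neutrophil serine proteases.

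Promoter sequence is shown for 4 members whose levels the results below turn on, because it sets the E-box of lysosomal genes and the interferon-stimulated element side by side. Bases are 5′ to 3′ in the sense of the gene, from RefSeq on GRCm38.p6, and positions count back from the annotated start. The expression files use another build, so these coordinates hold for GRCm38.p6 alone. Capitals mark the E-box TCACGTG on either strand in Ctsd and Ctsa and the interferon-stimulated element (GAAA, any 2 bases, GAAA) in Ctss. Where TCACGTGA stands, the match on one strand overlaps the match on the other. The stretch of Ctsd lies at chr7:142387908-142388077 on the minus strand, from -250 to -81. Those of Ctsa (chr2:164833653-164833772), Ctss (chr3:95526666-95526785) and Ctsk (chr3:95499090-95499209) lie on the plus strand, from -120 to -1.
Ctsd: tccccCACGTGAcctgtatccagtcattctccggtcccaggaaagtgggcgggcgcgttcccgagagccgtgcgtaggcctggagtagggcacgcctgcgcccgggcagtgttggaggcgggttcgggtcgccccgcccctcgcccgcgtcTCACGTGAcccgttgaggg
Ctsa: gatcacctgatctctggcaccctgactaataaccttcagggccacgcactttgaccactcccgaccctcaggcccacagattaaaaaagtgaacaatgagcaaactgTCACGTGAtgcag
Ctss: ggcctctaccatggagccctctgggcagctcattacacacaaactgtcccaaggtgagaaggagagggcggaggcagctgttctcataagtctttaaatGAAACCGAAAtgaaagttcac
Ctsk: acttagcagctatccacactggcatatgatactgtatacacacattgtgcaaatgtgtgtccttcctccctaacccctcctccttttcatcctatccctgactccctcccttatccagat

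Promoters were listed for 7 of the 9 members, 8 promoters in all, because Ctsa had another besides the one printed. Over the 250 bases before the start, the E-box letters TCACGTG stood in 3.13% of 32851 mouse promoters on either strand. Among the members they stood in Ctsd and in the printed Ctsa promoter, but not in the other Ctsa promoter. The letters of the interferon-stimulated element stood in 2.98% of all promoters and among the members in Ctss, from -21 to -12. The Ctsc promoter held the letters GAGGAAGT of the PU.1 motif, found in 2.44% of all promoters, and TTCNNNGAA of the gamma-activated site, found in 7.02%. The M-box TCATGTG, found in 3.25% of all promoters, was in no member promoter. These are matches of letters in a window and say nothing of binding.

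The label check came first. Aoah had 17.92, 22.46, 13.96 and 3.91 TPM in B16mhgp100 Aoah tumours 1 to 4, against 0.89 to 7.58 TPM in the 4 B16mhgp100 Vector tumours, so the library labelled Aoah 4 lay inside the Vector range. In B16F10 the mean was 22.7 TPM for Aoah (SD 1.40) and 1.12 TPM for Vector (SD 0.523, n = 2 each). The library labelled Aoah 4 also stood apart in composition. Its 7 keratinocyte markers summed to 5765.66 TPM and its 6 skeletal muscle markers to 3463.94 TPM, while in the other 11 libraries these sums reached at most 37.07 and 652.38 TPM. All 9 melanoma and melanocyte markers reached 1 TPM in every library, and their sum was lowest in the library labelled Aoah 4, at 8079.46 TPM. The members' differences and the list medians in B16mhgp100 are therefore given with and without it.

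The cathepsins were abundant transcripts in every tumour. Together they made up 0.278% to 0.514% of all TPM in a library. Ctsd, Ctsz and Ctsb led, with medians over the 12 libraries of 1011.69, 1003.87 and 773.0 TPM, and Ctsd ranked 132 among 14814 genes with a mean of at least 1 TPM. Ctsa and Ctsl followed at medians of 279.32 and 246.53 TPM. Ctss, Ctsc and Ctsh had medians of 145.0, 92.31 and 69.48 TPM. Ctsk was lowest, at a median of 17.08 TPM.

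Most neighbours in that order were not apart in every library. Ctsd exceeded Ctsz in 5 of 12 libraries, and which of them led went largely by model. Ctsz was higher in every B16mhgp100 library except the one labelled Aoah 4, and Ctsd was higher in every B16F10 library. Ctsz exceeded Ctsb in 10, Ctsa exceeded Ctsl in 9, Ctss exceeded Ctsc in 9 and Ctsc exceeded Ctsh in 9. Ctsb exceeded Ctsa, Ctsl exceeded Ctss and Ctsh exceeded Ctsk in all 12. Only Ctsh and Ctsk, of the 8 neighbouring pairs, had ranges over the libraries that did not overlap.

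**Figure D1:**
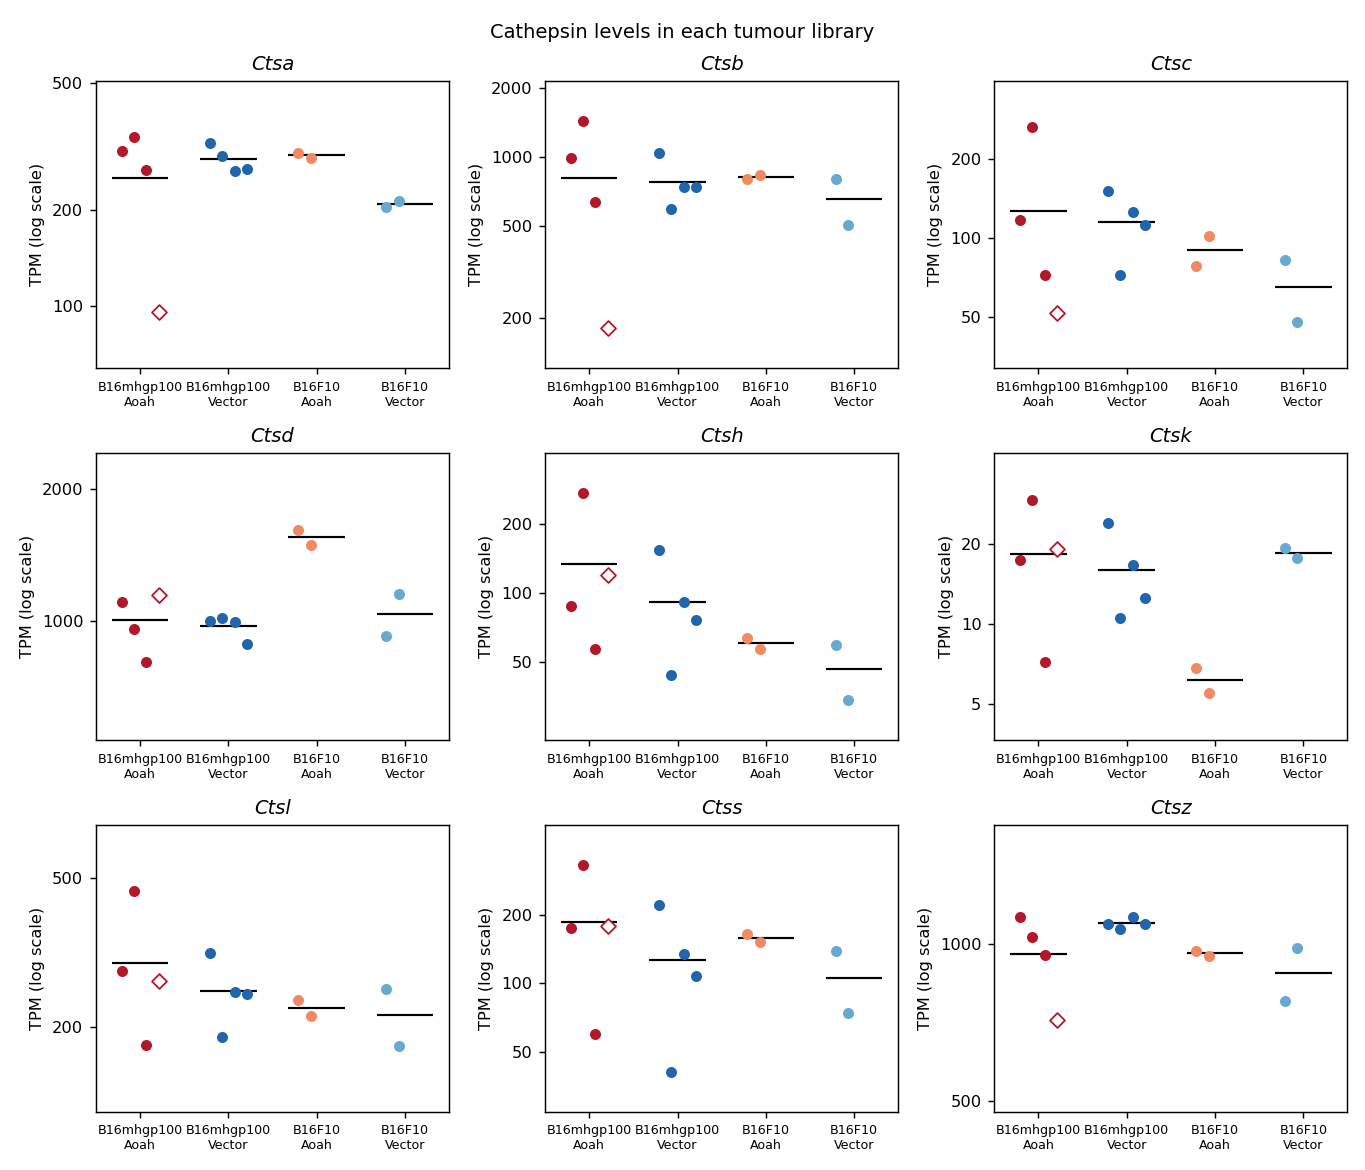
TPM of each cathepsin (log scale) in B16mhgp100 Aoah, B16mhgp100 Vector, B16F10 Aoah and B16F10 Vector tumours, 1 point per library, with a black line at the group mean and an open diamond for the B16mhgp100 library labelled Aoah 4. Ctsk in both B16F10 Aoah libraries (6.84 and 5.50 TPM) lies below every other library, and Ctsd there (1608.75 and 1493.22 TPM) lies above every other library.

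How strongly a member varied also differed within the family. Over the 12 libraries the coefficient of variation was 13.3% for Ctsz and 21.8% for Ctsd, against 70.6% for Ctsh, 55.1% for Ctsc and 52.9% for Ctss. The highest Ctss library had 8.09 times the level of the lowest, while for Ctsz this ratio was 1.58. In B16mhgp100 a single tumour, Aoah 2, was the highest library for 7 members, all but Ctsd and Ctsz. The library labelled Aoah 4 was the lowest for Ctsa, Ctsb, Ctsc and Ctsz, Aoah 3 for Ctsd, Ctsk and Ctsl, and Vector 2 for Ctsh and Ctss. For the most variable members, Ctsh, Ctsc and Ctss, the highest B16mhgp100 library was thus a single Aoah tumour. Their lowest libraries lay in both arms.

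**Figure D2:**
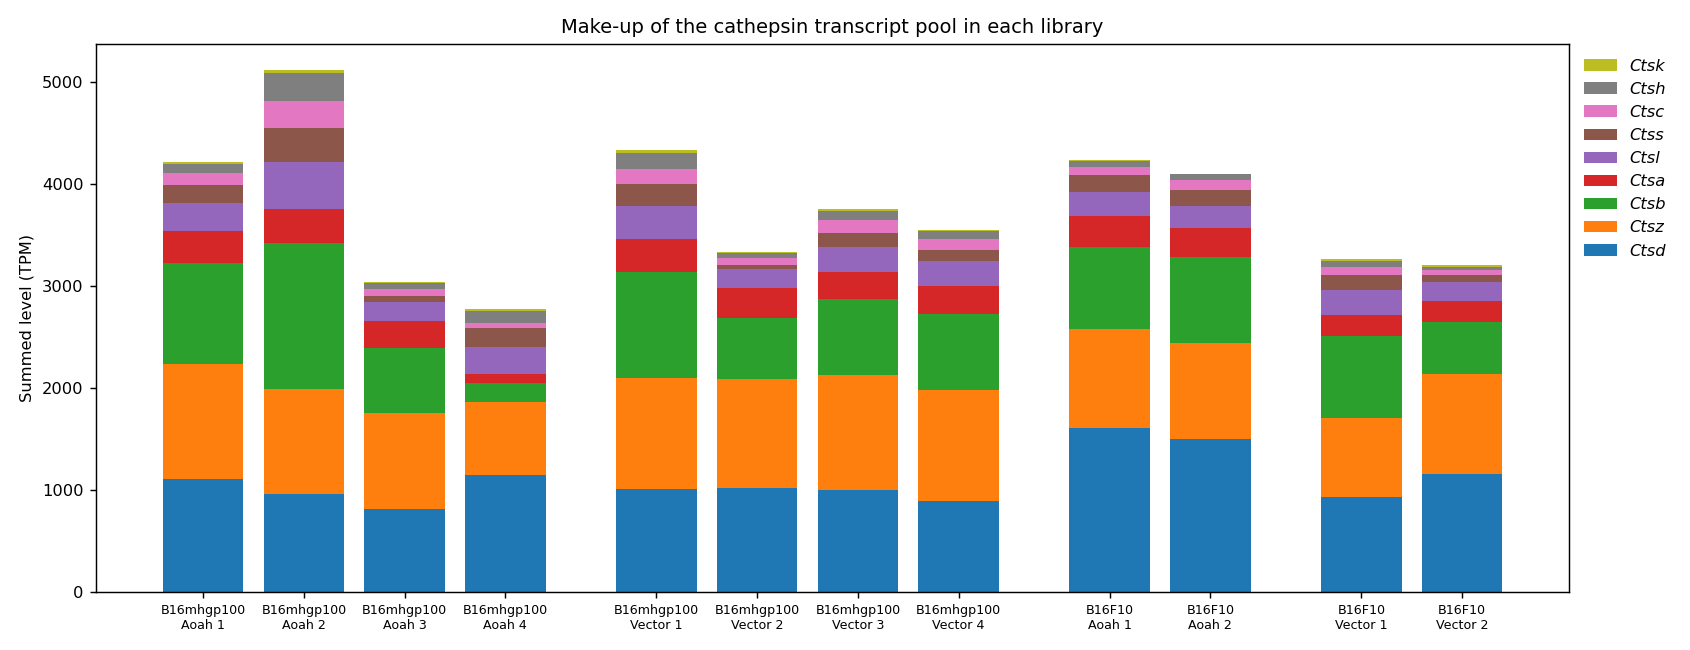
Stacked TPM of the 9 cathepsins in each of the 12 libraries, coloured by gene. The pool summed to between 2772.59 and 5115.01 TPM in B16mhgp100 Aoah tumours and to between 3330.9 and 4327.36 TPM in B16mhgp100 Vector tumours, and it was 4232.73 and 4099.02 TPM in B16F10 Aoah tumours, against 3262.07 and 3206.12 TPM in B16F10 Vector tumours.

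The make-up of the pool followed the same lines. Ctsd took 41.4% of the pool in the library labelled Aoah 4, where Ctsb took 6.51%. In the other B16mhgp100 Aoah tumours Ctsd took 18.7% to 26.6% and Ctsb 20.9% to 28.0%. In the B16mhgp100 Vector tumours Ctsd took 23.2% to 30.6% and Ctsb 17.8% to 24.2%. In B16F10, Ctsd took 38.0% and 36.4% of the pool in Aoah tumours and 28.4% and 36.0% in Vector tumours.

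In B16F10 tumours 8 of the 9 cathepsins had a higher mean with Aoah than with Vector and Ctsk had a lower one, but none passed the test. With limma on log2(TPM + 1) and Benjamini-Hochberg adjustment over all 14533 genes tested, 0 of 9 members had an adjusted p under 0.05, while 50 genes did, which is 0.344% of those tested. At an unadjusted p under 0.05 there were 3 members, Ctsk, Ctsa and Ctsd, against 18.2% of all genes. The members' median log2 fold change was 0.41, beside 0.02 over all genes tested. It was 0.11 without Vector 2, with 7 of 9 above 0 and -0.11 over all genes. Without Vector 1 it was 0.48, with 7 of 9 above 0 and 0.14 over all genes. An exact permutation test of 2 against 2 libraries cannot go below 0.333, so none is given. Bulk RNA does not tell fewer cells of a type from less RNA per cell, and this holds for every level and difference here.

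Ctsk (ENSMUSG00000028111), the collagen-degrading member, had 6.84 and 5.50 TPM in B16F10 Aoah tumours, against 19.29 and 17.76 TPM in B16F10 Vector tumours. Both Aoah libraries were low, and the groups did not overlap. The log2 fold change was -1.45 (SE 0.25, 95% interval -2.07 to -0.83), and the limma adjusted p was 0.0851. The authors' deposited table gives Ctsk in B16F10 a log2 fold change of -1.60 with an adjusted p of 0.000651. It was the single member past 0.05 in that table, where 8.53% of 14328 genes were, so whether Ctsk passed differed between the 2 tests.

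Ctsd (ENSMUSG00000007891), one of the most abundant members, had 1608.75 and 1493.22 TPM in B16F10 Aoah tumours, against 926.87 and 1154.51 TPM in B16F10 Vector tumours. Both Aoah values were above both Vector values. Its log2 fold change was 0.58 (SE 0.17, limma adjusted p = 0.171). Ctsa (ENSMUSG00000017760), the protective carboxypeptidase, had 302.33 and 290.35 TPM with Aoah, against 203.48 and 212.70 TPM with Vector. These groups did not overlap either, and the log2 fold change was 0.51 (SE 0.14, limma adjusted p = 0.163). Melanocyte markers were higher in the same libraries, with sums of 30224.08 to 31300.25 TPM in B16F10 Aoah tumours and 19482.78 to 22971.31 TPM in B16F10 Vector tumours. Of these 9 markers 8 were above 0 and 0 passed, with a median log2 fold change of 0.50, and their part in the cathepsin differences was not tested.

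Ctss (ENSMUSG00000038642), the invariant chain protease, had 165.22 and 152.11 TPM in B16F10 Aoah tumours, against 137.89 and 73.82 TPM in B16F10 Vector tumours. The Aoah values were higher, and Vector 2 was the low one. The log2 fold change was 0.65 (SE 0.31, limma adjusted p = 0.341), and without Vector 2 it was 0.20. In all, Ctsa, Ctsd and Ctss were higher without overlap and Ctsk was lower without overlap, which is 4 of 9 members. Among all genes tested, 50.5% did not overlap, 28.0% higher and 22.6% lower, so this count is near the background.

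The remaining members overlapped between the arms of B16F10. Ctsb had 801.92 and 838.05 TPM with Aoah, against 805.30 and 507.53 TPM with Vector (log2 fold change 0.36, SE 0.24). Ctsc had 78.41 and 101.83 TPM with Aoah, against 82.79 and 47.77 TPM with Vector (0.50, SE 0.30), and Ctsh had 63.35 and 57.00 TPM, against 58.94 and 34.15 TPM (0.41, SE 0.29). For all of Ctsb, Ctsc, Ctsh, Ctsl and Ctss the lowest of the 4 libraries was Vector 2. Without it, the log2 fold changes of Ctsb, Ctsc and Ctsh were 0.03, 0.11 and 0.03. Ctsl had a log2 fold change of 0.08 (95% interval -0.44 to 0.61) and Ctsz of 0.14 (-0.28 to 0.56).

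In B16mhgp100 tumours no cathepsin was shown to differ between Aoah and Vector. Of the 9 members 5 stood above 0 and 4 below, and every member's range with Aoah overlapped its range with Vector. By limma 0 of 9 members had an adjusted p under 0.05, as did 0.00% of 14228 genes tested, and 0 members against 2.46% of genes had an unadjusted p under 0.05. The groups did not overlap for 5.88% of all genes. Aoah itself, the over-expressed gene, did not pass in B16mhgp100, with a log2 fold change of 1.96 (SE 0.59, limma adjusted p = 0.694). Its adjusted p in the authors' deposited table was 0.183. The lack of a call in this comparison therefore does not show that a cathepsin was unchanged. By the authors' deposited table, too, 0 of 9 members had an adjusted p under 0.05, and 0.0146% of 20534 genes did. The members' median log2 fold change was 0.03, beside -0.20 over all genes tested. Without the library labelled Aoah 4 these medians were 0.22 and -0.02, with 7 of 9 members above 0. With scaling by the median of ratios, which took up the shift of all genes, 7 of 9 stood above 0 with a median of 0.27, and with array weights 8 of 9 with a median of 0.11. In the authors' deposited table Ctsh and Ctss had log2 fold changes of 0.80 and 0.81, and 7 of 9 members were above 0.

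Ctss had 174.96, 331.20, 59.78 and 177.74 TPM in B16mhgp100 Aoah tumours, against 220.92, 40.96, 134.38 and 107.79 TPM in B16mhgp100 Vector tumours. Both arms held high and low tumours, with Aoah 2 the highest and Vector 2 the lowest. The log2 fold change was 0.55 (SE 0.60, limma adjusted p = 0.699), and the exact permutation test gave p = 0.429, where the smallest it can give is 0.0286. Without the library labelled Aoah 4 it was 0.50, and leaving out any 1 library gave 0.10 to 1.01. The aminopeptidase gene Ctsh (ENSMUSG00000032359) had 87.15, 271.40, 56.89 and 119.60 TPM with Aoah, against 153.76, 43.84, 90.82 and 75.61 TPM with Vector. Its groups overlapped in the same way, with a log2 fold change of 0.44 (SE 0.51, limma adjusted p = 0.707), which became 0.03 without Aoah 2 and 0.42 without the library labelled Aoah 4.

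Ctsz (ENSMUSG00000016256), the steadiest member, had 1124.89, 1028.58, 949.86 and 714.48 TPM in B16mhgp100 Aoah tumours, against 1090.18, 1066.43, 1126.88 and 1092.60 TPM in B16mhgp100 Vector tumours. The Vector tumours lay close together, and 3 of the 4 Aoah tumours lay below them. The log2 fold change was -0.22 (SE 0.17) with an exact permutation p of 0.114, it was -0.08 without the library labelled Aoah 4, and it was 0.02 after scaling by the median of ratios.

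Ctsb (ENSMUSG00000021939), the abundant endopeptidase, had 994.06, 1430.82, 635.44 and 180.50 TPM in B16mhgp100 Aoah tumours, against 1045.37, 593.83, 742.88 and 744.08 TPM in B16mhgp100 Vector tumours. The Aoah arm held both the highest and the lowest of the 8 libraries. The log2 fold change was -0.27 (SE 0.57), and 0.34 without the library labelled Aoah 4. Ctsa had 306.40, 338.25, 266.85 and 95.37 TPM with Aoah, against 323.41, 294.71, 265.44 and 268.28 TPM with Vector. The library labelled Aoah 4 was again the low one, and the log2 fold change was -0.34 (SE 0.37) with it and 0.08 without it. Beside these values stand the keratinocyte and muscle marker sums of that library given above, and their part in the low Ctsa and Ctsb was not tested.

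For the other members the difference crossed 0 when 1 library was left out. Ctsc ran from 51.71 to 265.46 TPM in B16mhgp100 Aoah tumours and from 72.42 to 151.14 TPM in Vector tumours, with a log2 fold change of -0.10 and 0.23 without the library labelled Aoah 4. Ctsd ran from 807.0 to 1148.51 TPM with Aoah and from 889.93 to 1019.34 TPM with Vector (log2 fold change 0.03, and -0.04 without the library labelled Aoah 4). Ctsl ran from 179.71 to 461.04 TPM with Aoah and from 188.8 to 314.53 TPM with Vector (log2 fold change 0.19, -0.04 without Aoah 2, and 0.22 without the library labelled Aoah 4). Ctsk ran from 7.19 to 29.4 TPM with Aoah and from 10.57 to 24.02 TPM with Vector (log2 fold change 0.11, -0.16 without Aoah 2, and 0.04 without the library labelled Aoah 4).

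**Figure D3:**
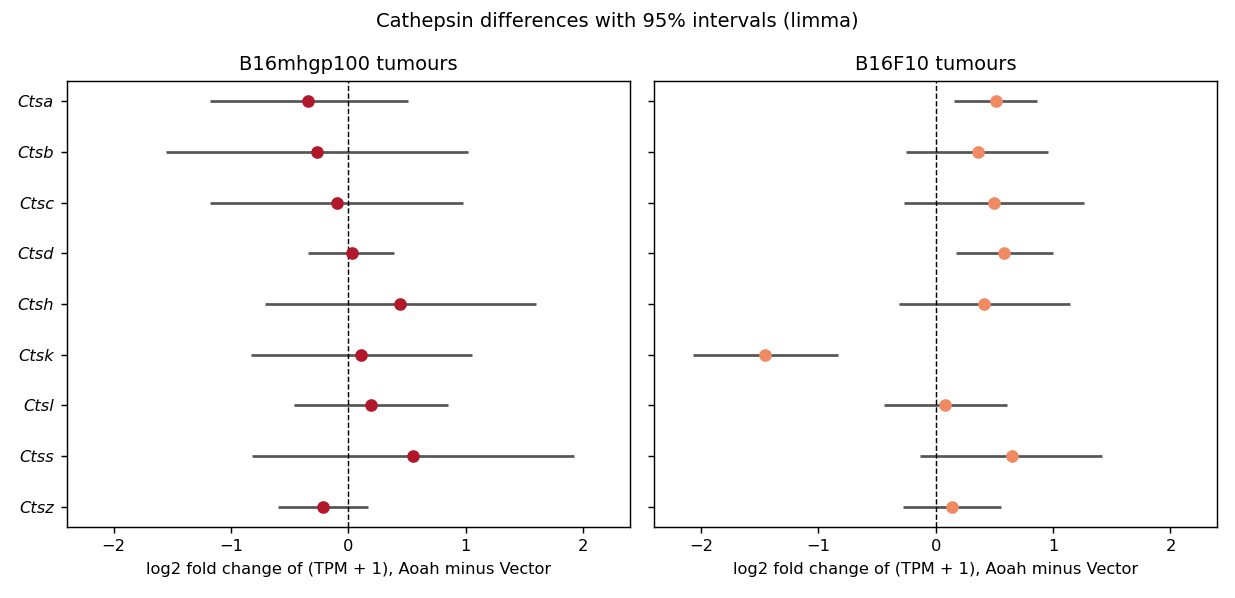
Log2 fold change of (TPM + 1), Aoah minus Vector, for each cathepsin in B16mhgp100 tumours (left, 4 against 4) and B16F10 tumours (right, 2 against 2), as points with unadjusted 95% intervals from limma. The interval of every member spans 0 in B16mhgp100, and in B16F10 those of Ctsk (-2.07 to -0.83), Ctsd (0.17 to 1.00) and Ctsa (0.16 to 0.86) do not.

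Whether Aoah acted differently on the cathepsins in the 2 models was tested as an interaction over all 12 libraries. No member passed, and 0.0302% of 16556 genes did. The member with the smallest p was Ctsk, whose Aoah effect was 1.56 higher on the log2 scale in B16mhgp100 than in B16F10 (SE 0.65, limma adjusted p = 0.849). Ctsd came next, at -0.55 (SE 0.26, limma adjusted p = 0.849). Without the library labelled Aoah 4 these were 1.49 (limma adjusted p = 0.369) and -0.62 (limma adjusted p = 0.231). A difference in Aoah effect between the models was therefore not shown for any cathepsin, and the intervals of the others were wide, for example -2.22 to 2.04 for Ctss.

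Between the models themselves, Ctsd and Ctsk came closest to a call among Aoah tumours. Among Aoah tumours, Ctsd had 1107.41, 958.86, 807.00 and 1148.51 TPM in B16mhgp100, against 1608.75 and 1493.22 TPM in B16F10. All 4 B16mhgp100 values were lower. The log2 fold change, B16mhgp100 minus B16F10, was -0.64 (SE 0.18, limma adjusted p = 0.0836), and without the B16mhgp100 library labelled Aoah 4 it was -0.71 with a limma adjusted p of 0.00885, where 21.2% of 16261 genes passed. Over the 6 fits that each left out 1 Aoah library it ran from -0.71 to -0.54, with limma adjusted p from 0.00885 to 0.524. For Ctsk the log2 fold change was 1.29 (SE 0.46, limma adjusted p = 0.151), and 1.66 without B16mhgp100 Aoah 3 (limma adjusted p = 0.0389), where 2.70% of 16457 genes passed. Over the same 6 fits it ran from 1.02 to 1.66, with limma adjusted p from 0.0389 to 0.623. With all libraries 0 of 9 members passed, against 3.70% of 16556 genes tested. Among Vector tumours 0 of 9 members passed, against 1.88% of genes, and the smallest unadjusted limma p was 0.118, for Ctsz (log2 fold change 0.33).

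The genes whose levels ran most like a member's over the 12 libraries differed from member to member. Likeness was Pearson's r of log2(TPM + 1) over 8476 genes with a mean of at least 10 TPM. It is a description over 12 points that share library composition. Ctss ran most like Fcgr3 (r = 0.97), Cd53 (0.96) and C1qb (0.96), genes of macrophages and other leukocytes. Ctsh ran most like Ms4a6d (0.97), Lilrb4b (0.95) and Cfb (0.95), and Ctsc most like Msr1 (0.94), Pnp (0.93) and Apobec1 (0.93). Ctsl ran most like Lox (0.97), a collagen cross-linking enzyme, Mmp2 (0.95), a gelatinase, and Itgam (0.94), a myeloid integrin. Ctsk ran most like Cd34 (0.96), Col1a2 (0.91), a chain of type I collagen, and Emp1 (0.91).

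The abundant members had other neighbours. Ctsd ran most like Tmem205 (r = 0.93), Cib1 (0.93) and Gramd1a (0.90). Ctsa ran most like Rgp1 (0.98), Cyb5r1 (0.98) and Acox3 (0.97), and Ctsb most like Zfp36l2 (0.98), Fez2 (0.98) and App (0.97). For Ctsz they were Degs1 (0.96), Prnp (0.95) and Peds1 (0.92). Without the library labelled Aoah 4 these values for Ctsa were 0.91, 0.91 and 0.89. Among the members themselves, 26 of 36 pairs had r above 0, with a median of 0.31, from -0.43 for Ctsd with Ctsk to 0.94 for Ctsh with Ctsl. Without the library labelled Aoah 4, 30 of 36 were above 0, with a median of 0.48, and Ctsd with Ctsk stood at -0.46. With each group centred on its mean, 30 of 36 were above 0 and Ctsd with Ctsk stood at 0.47.

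Cell type markers moved with the levels of some members and not of others. The 14 macrophage and monocyte markers all reached 1 TPM in every library. They summed to 285.15 to 3582.82 TPM in B16mhgp100 Aoah tumours and 269.04 to 1561.98 TPM in B16mhgp100 Vector tumours, and to 1139.24 to 1210.11 TPM in B16F10 Aoah tumours and 678.03 to 744.8 TPM in B16F10 Vector tumours. Over the 12 libraries their mean log2 level had r = 0.95 with Ctss, 0.95 with Ctsl and 0.89 with Ctsh, and without the library labelled Aoah 4 the values were the same to 2 decimals. With Ctsb it was 0.37, and 0.92 without that library. With Ctsc and Ctsk it was 0.72 and 0.62, and 0.86 and 0.61 without that library. Ctsa, Ctsd and Ctsz had r = 0.10, 0.11 and 0.06 with these markers, and 0.52, 0.10 and 0.21 without that library. The likeness was not particular to macrophage markers. Over the 12 libraries fibroblast markers had r = 0.79 with Ctss, 0.88 with Ctsl and 0.83 with Ctsh. Neutrophil markers had 0.77, 0.82 and 0.85 with them, and melanocyte markers -0.36, -0.39 and -0.54. The neutrophil markers were near the floor, with sums of 1.5 to 33.49 TPM over the 12 libraries. Less the mean level of the macrophage and monocyte markers, Ctss stood at 2.01 ± 0.30 in B16mhgp100 Aoah tumours and 2.01 ± 0.19 in B16mhgp100 Vector tumours (log2, SD, n = 4 each). In B16F10 it stood at 2.39 ± 0.07 in Aoah tumours and 2.14 ± 0.43 in Vector tumours (SD, n = 2 each). Other members are given in the same way, Aoah then Vector. Ctsl had 2.84 ± 0.71 and 3.19 ± 0.58 in B16mhgp100, and 2.89 ± 0.09 and 3.21 ± 0.15 in B16F10. Ctsh had 1.53 ± 0.45 and 1.63 ± 0.17, and 1.01 ± 0.09 and 0.99 ± 0.34. Ctsk had -1.17 ± 0.51 and -0.73 ± 0.46, and -2.09 ± 0.18 and -0.24 ± 0.13. The part of macrophage content in the cathepsin differences was not tested.

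The 8 fibroblast markers summed to 166.27 to 232.78 TPM in B16F10 Aoah tumours and 368.97 to 454.33 TPM in B16F10 Vector tumours, and ran the same way as Ctsk there. In B16mhgp100 the sums were 115.1 to 2168.14 TPM with Aoah and 131.36 to 898.7 TPM with Vector. Their mean log2 level had r = 0.86 with Ctsk over the 12 libraries, with and without the library labelled Aoah 4. In B16F10, 7 of the 8 were lower with Aoah, 0 passed, and their median log2 fold change was -0.86. Endothelial markers ran the same way, with 0 of 6 above 0, a median of -1.10, and sums of 22.19 to 28.5 TPM in B16F10 Aoah tumours and 54.24 to 77.04 TPM in B16F10 Vector tumours (r = 0.77 with Ctsk over the 12 libraries). So did muscle markers, with 0 of 5 above 0, a median of -1.67, and sums of 16.7 to 17.73 TPM with Aoah and 19.49 to 182.54 TPM with Vector (r = 0.57), although without Vector 2 their median was 0.49. The part of fibroblast, endothelial and muscle content in the Ctsk difference was not tested.

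**Figure D4:**
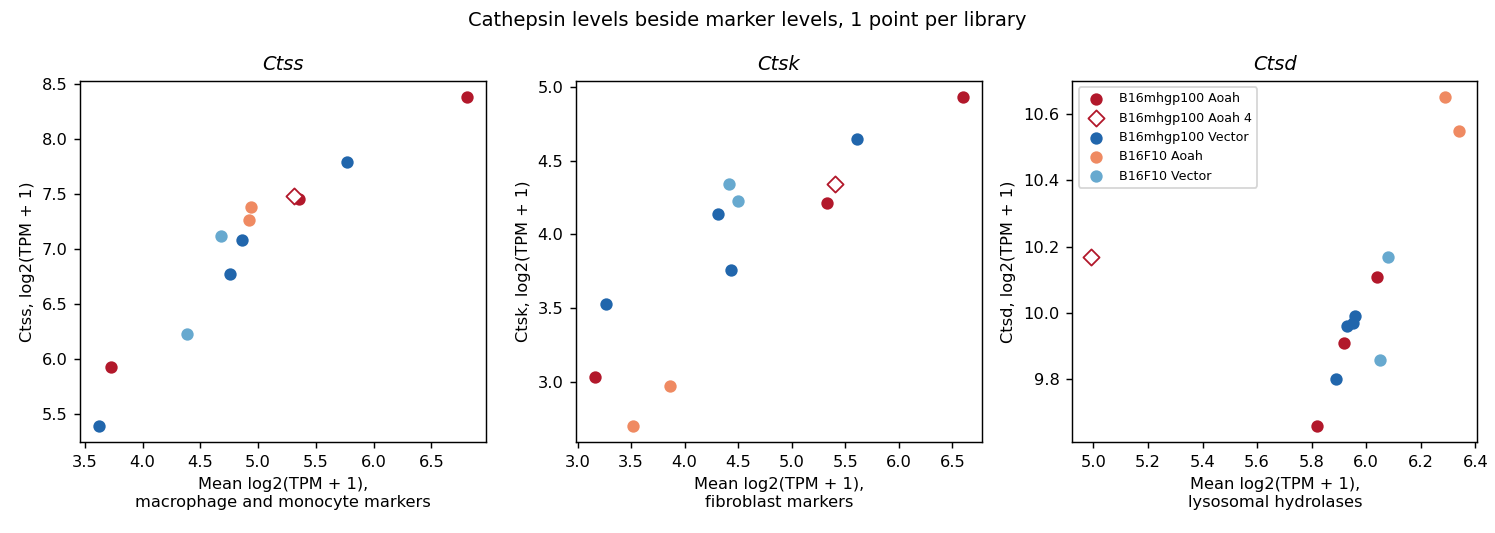
Ctss against macrophage and monocyte markers, Ctsk against fibroblast markers and Ctsd against lysosomal hydrolases, all as log2(TPM + 1) with list values averaged over genes, 1 point per library, and an open diamond for the B16mhgp100 library labelled Aoah 4. Ctss (r = 0.95) and Ctsk (r = 0.86) run with their markers over the 12 libraries. For Ctsd and the hydrolases r is 0.33 with the open diamond and 0.95 without it. Spearman's rank correlation for Ctsd over the 12 libraries is 0.64. Ctsa, Ctsb and Ctsz, not drawn, went the other way. Their r with the hydrolases was 0.79, 0.75 and 0.51 with that library and -0.01, -0.0 and -0.32 without it.

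The genes that work with the cathepsins were read from lists, in B16F10 first. Of 11 MHC class II chain, loading and processing genes, 6 passed as higher in B16F10 Aoah tumours, against 0.289% of all genes, and 0 passed as lower. The median log2 fold change was 2.47, with 10 above 0 and 1 below. The 1 below was Ifi30, with 105.79 and 108.45 TPM in B16F10 Aoah tumours, against 147.44 and 136.16 TPM in B16F10 Vector tumours. H2-DMb1 and H2-DMa, the chains of the peptide exchange molecule, rose by 3.14 (SE 0.17, limma adjusted p = 0.0178) and 2.61 (SE 0.19, limma adjusted p = 0.0259). No gene passed in B16F10 when any 1 of its 4 libraries was left out or when the filter on low values was dropped. Cd74, whose product Ctss cleaves, had 1330.71 and 1516.99 TPM in B16F10 Aoah tumours, against 292.29 and 224.67 TPM in B16F10 Vector tumours, and rose by 2.47 (SE 0.18, limma adjusted p = 0.0271). Ctss itself, at 0.65, did not pass, and the difference between Ctss and Cd74 was not tested.

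Among other cathepsins and lysosomal peptidases, all 10 tested were higher in B16F10 Aoah tumours, with a median log2 fold change of 0.40, and 1 passed. Without Vector 1, or without Vector 2, 8 of the 10 were higher. The 1 that passed with all B16F10 libraries was Ctsw, a cathepsin of cytotoxic T cells and natural killer cells. Ctsw had 11.14 and 13.38 TPM in B16F10 Aoah tumours, against 1.16 and 0.58 TPM in B16F10 Vector tumours (log2 fold change 2.84, SE 0.30, limma adjusted p = 0.0433). T cell markers moved with it, since their 8 genes summed to 87.76 to 100.51 TPM in B16F10 Aoah tumours and 7.12 to 18.28 TPM in Vector tumours. The part of T cell content in it was not tested. Of 8 granule proteases that cathepsin C activates, 4 were tested and 0 passed, with a median of 1.01. Gzmb, the granzyme among them with the smallest p, had a log2 fold change of 2.07 (SE 0.34, limma adjusted p = 0.0819).

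The inhibitors, sorting and acidification genes showed no call in B16F10. Of 8 cystatins and stefins 4 were tested, 0 passed, and the median log2 fold change was 0.23. Cst7, cystatin F of immune cells, was at 1.57 (limma adjusted p = 0.112). Of 8 mannose 6-phosphate tagging and sorting genes 0 passed (median -0.06), of 14 lysosomal membrane and proton pump genes 0 passed (0.12), and of 18 other lysosomal hydrolases 0 passed (0.33). Of 7 regulators 0 passed (0.36), with Tfeb at 0.93 (limma adjusted p = 0.167) and Tfe3 at 0.51 (limma adjusted p = 0.222). Of 10 osteoclast and matrix genes tested beside Ctsk 0 passed (-0.52), with Postn at -2.67 (limma adjusted p = 0.105), Col1a1 at -1.30 and Col1a2 at -1.38. Without Vector 2 the medians of inhibitors and regulators were 0.44 and 0.01, and without Vector 1 those of inhibitors and sorting genes were 0.03 and 0.27.

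In B16mhgp100 no gene of any of these lists passed, as no gene did at all. Median log2 fold changes are given beside -0.20 over all genes with all libraries and -0.02 without the library labelled Aoah 4. Class II genes stood at 0.68 with all libraries and at 0.59 without that library, with 9 of 9 above 0 both times. Cathepsin C targets stood at 0.78 (4 of 4 above 0), and at 0.90 (3 of 4) without it. Inhibitors stood at 0.47, and at 0.21 without it, with 4 of 4 above 0 both times.

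Several of the other lists moved towards 0 when that library was left out. The median of sorting genes was -0.48, and -0.18 without it, and that of membrane and proton pump genes -0.27, and -0.05 without it. Hydrolases were at -0.31, and at 0.00 without it, with 4 of 18 and then 9 of 18 above 0. Regulators were at -0.35, and at -0.02 without it. Other cathepsins and peptidases were at 0.15, and at 0.12 without it, and matrix genes at 0.38, and at 0.39 without it. Macrophage markers stood at 0.59 with and without it, fibroblast markers at 0.47, and at 0.53 without it. Melanocyte markers stood at -0.66 with 0 of 9 above 0, and at -0.18 with 1 of 9 above 0 without it.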

How the data were processed

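The 9 cathepsins and all gene lists were chosen with earlier results of these data known. The authors deposited expression as log2 values of TPM + 1, which were turned back to TPM. Per the submitters' processing notes, RSEM and build mm39 were used, and DESeq2. The sources used here give no versions. The authors' deposited differential tables give log2 fold changes, standard errors and p-values with adjusted p-values, and values taken from them are named as such. Since TPM does not carry depth, the reads behind a value are unknown, and counting intervals cannot be given. RSEM divides reads between similar genes, so values of close paralogues are less certain. The libraries are polyA RNA and, per the labels, groups were taken from titles. No sequencing batch is given there.

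TPM was tested as log2(TPM + 1), which understates changes of low genes, with limma 3.58.1 in R 4.3.3 (trend, 2-sided, Benjamini-Hochberg over all genes, threshold 0.05). A gene was tested if it had 1 TPM in a number of libraries equal to the smaller group. The models were fitted separately, and the interaction and the contrasts between models on all 12 libraries. Exact permutation tests used scipy 1.17.1 in Python 3.11.15. The fit was run on simulated data with 200 changed genes and the same noise for every gene. That is unlike these tumours, so it does not tell how often real changes would be called here. Replicate numbers are not said to pair tumours, and no block was used. All 9 members are named, with Aoah, up to 4 genes of a list by smallest p in the comparison, and the 3 genes most like each member. Predicted gene models were left out. Ifi30 is named besides, as the 1 class II gene below 0 in B16F10. Recomputing list medians without single libraries was added after seeing the data, as was doing so with scaling and weights. Promoters are from RefSeq. Alternatives were a pseudocount of 0.1, no filter, median-of-ratios scaling, array weights, another set of libraries in the fit, a replicate block and leaving out each library.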

Additional observations from a re-analysis of the deposited data

Results flagged for a closer look

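Ctsd in the B16mhgp100 Vector tumour 4, at 889.93 TPM, lay below the other 3 Vector tumours, which had 1004.03, 1019.34 and 996.80 TPM and lay close together. The rule set the gap to the nearest library against the range of the group, on the log2 scale. It marked this 1 value among 18 groups of 4 libraries, the 9 cathepsins in the B16mhgp100 Aoah and Vector tumours. For such a rule chance gives about 1 in 20. A small gap is marked where the other libraries lie close together, and a larger gap can be missed where they do not. Ctsb at 180.50 TPM and Ctsa at 95.37 TPM in the library labelled Aoah 4 were not marked.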

How the results depend on the processing

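The number of cathepsins past the threshold was 0 in every comparison, and it kept that value under every alternative except in B16F10 with the replicate block (1, Ctsk) and between models among Aoah tumours with array weights (2, Ctsd and Ctsk) or with 1 library left out (0 to 1). With the replicate block Ctsk in B16F10 had a log2 fold change of -1.45 (limma adjusted p = 0.0297). The labels do not say whether the numbers pair the tumours. Same-numbered tumours had deviations correlated by -0.24 to 0.07 over 16556 genes, which cannot settle it, because differences in tumour make-up also enter these deviations. The block changed no other Aoah against Vector call of a cathepsin. Counts over all genes moved, and the cause was not tested. In B16mhgp100 they were 1 with the pseudocount of 0.1, 5 with array weights and 0 to 2 with a library left out, against 0. In B16F10 they were 32 with that pseudocount, 0 without the filter (3335 at an unadjusted p under 0.05), 127 with scaling, 115 with array weights, 765 with the block and 0 to 0 with a library left out, against 50. There, leaving out a library leaves 1 tumour in an arm, assumed to vary like the other arm. For the difference between models they were 46 without the filter, 10 with scaling, 31 with array weights, 2 with the block and 2 to 45 with a library left out, against 5. Among Vector tumours the model contrast gave 480 with scaling, 515 with array weights, 743 with only the libraries compared, 82 with the block and 115 to 242 with a library left out, against 312. Among Aoah tumours it gave 1404 with scaling, 6160 with array weights, 20 with only the libraries compared, 76 with the block and 77 to 3448 with a library left out, against 612. No member's log2 fold change that reversed was past the threshold. In B16mhgp100 these were 0.11 for Ctsa, 0.31 for Ctsb and 0.06 for Ctsc with array weights, and 0.13 for Ctsc and 0.02 for Ctsz with scaling. For the difference between models they were -0.16 for Ctsh with array weights and 0.15 for Ctss with scaling. Between models among Vector tumours it was -0.06 for Ctss with scaling. Among Aoah tumours they were 0.01, 0.19 and 0.14 for Ctsa, Ctsb and Ctsz with array weights, 0.09 and 0.07 for Ctss and Ctsz with scaling, and 0.11, 0.21 and 0.06 for Ctsb, Ctss and Ctsz with the block. With a library left out, B16mhgp100 values ran from -0.53 to 0.08 for Ctsa, -0.66 to 0.34 for Ctsb, -0.55 to 0.23 for Ctsc, -0.04 to 0.13 for Ctsd, -0.16 to 0.47 for Ctsk and -0.04 to 0.41 for Ctsl. In B16F10 they ran from -0.17 to 0.33 for Ctsl and -0.03 to 0.31 for Ctsz. For the difference between models they ran from -0.39 to 0.42 for Ctsh, -0.14 to 0.36 for Ctsl and -0.55 to 0.37 for Ctss. Between models among Vector tumours they ran from -0.07 to 0.59 for Ctsb, -0.24 to 0.07 for Ctsd, -0.04 to 0.45 for Ctsl and -0.36 to 0.54 for Ctss. Among Aoah tumours they ran from -0.58 to 0.03 for Ctsa, -0.76 to 0.24 for Ctsb, -0.23 to 0.55 for Ctsc, -0.36 to 0.45 for Ctss and -0.11 to 0.11 for Ctsz. TPM carries no read depth, so what depth limits is unknown.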
